A study of Danio rerio with 6 samples.

Results

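The circadian clock of vertebrate cells is a loop of transcription factors. The activators CLOCK and BMAL1 (the product of the *arntl1* genes) bind DNA as a pair at E-box elements and switch on, among others, the period and cryptochrome genes, whose proteins in turn inhibit the pair, and the *nr1d* genes. The *nr1d* genes encode the REV-ERB nuclear receptors, which in mammals repress *Bmal1* and *Clock* at elements that the activating ROR receptors also bind. In zebrafish, cells of the retina and of most other tissues hold such a clock and can set it by light. Here 6 genes of this loop were followed in the zebrafish retina: the activators *clocka* (ENSDARG00000011703), *clockb* (ENSDARG00000003631) and *arntl1a* (ENSDARG00000006791, now also called *bmal1a*), and the repressors *nr1d1* (ENSDARG00000033160), *nr1d2a* (ENSDARG00000003820) and *nr1d2b* (ENSDARG00000009594). They were selected by identifier, with earlier results of these data known. They are 6 of the 25190 genes in the deposited table of counts, and all 6 passed the filter on low counts.

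RNA-Seq was done on 3 *pde6c* samples (PR1, PR2 and PR3) and 3 WT samples (WR1, WR2 and WR3). The *pde6c* larvae were homozygous for the germline allele *w59* of *pde6c*, the catalytic subunit of the cone phosphodiesterase. They came from heterozygous parents, whereas the WT larvae came from genotyped WT siblings of those parents, so that parentage and genotype cannot be told apart. All larvae were at 5 dpf and had first been screened by their optokinetic response, which was measured under bright light. They were kept in the dark for at least 2 h before dissection. Each sample pooled 3 retinas from 3 larvae, and its total RNA was amplified before sequencing. Matings were staggered in time so that all retinas could be taken at the same age after fertilization. The light cycle and the hour of the day at dissection are not given in the sources used here. Any difference in that hour between the genotypes cannot be told apart from genotype.

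Between 18757605 (WR2) and 22510222 (WR1) fragments per sample were counted on genes, so that 3 counts correspond to between 0.129 (PR1) and 0.169 CPM (WR2). CPM of single genes are counts scaled to a common library total with TMM factors. The summed levels of marker lists below are in CPM scaled to the library total alone, without these factors. Because the cDNA was amplified without molecular identifiers, this limit covers counting error only. The 6 genes lay far above it, with 547 (*arntl1a* in WR2) to 16273 counts (*nr1d1* in WR1). The labels were checked on *pde6c* itself, which had 60.1, 140.2 and 84.8 FPKM in *pde6c* samples, against 445, 655 and 520.0 FPKM in WT samples (log2 difference -2.56, limma adjusted p = 0.00912). A summary by the authors gives the shares of genes with nonzero FPKM with the genotypes the opposite way round from the column names. The directions here follow the column names, which *pde6c* and the cone markers fit. The gene *pde6c* had 0 counts in all 6 libraries, as another gene covers its span and fragments on more than 1 gene were left out. Of 18 cone markers tested, 13 fell and 2 rose in *pde6c*, against 2.29% and 1.40% of all genes tested. The summed level of the matched cone markers was 8882 to 11841 CPM in *pde6c* samples and 23727 to 27971 CPM in WT samples. Fewer cones and less RNA per cone cannot be told apart in bulk retina. Of 12 rod markers tested, 3 fell (summed level 1856 to 2395 CPM in *pde6c* and 2452 to 3605 CPM in WT). No Müller glia (7 tested), amacrine and horizontal (8), ganglion (4), pigment epithelium (7) or microglia marker (4) passed the test, and 1 of 6 bipolar markers, *cabp5a*, rose. Markers of lens (1.13 to 1.69 CPM in *pde6c* and 1.36 to 3.15 CPM in WT, summed) and blood (at most 0.0456 CPM in *pde6c* and 0.578 CPM in WT) were near 0. Only 4 of 7 lens, 2 of 4 blood, 24 of 25 cone and 13 of 16 rod symbols matched a gene of the table, so these sums leave the others out. Of the matched cone genes, 5 had 0 counts in all libraries and add nothing to their sum. The part of these marker changes in the differences below was not tested.

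The level of each gene per transcript length is given by the authors' FPKM, in which the repressors *nr1d1* and *nr1d2b* were the most abundant of the 6 and *arntl1a* the least. Mean FPKM in *pde6c* retinas was 187 ± 29.6 for *nr1d1*, 129 ± 23.1 for *nr1d2b*, 66.1 ± 5.96 for *clockb*, 37.8 ± 8.79 for *nr1d2a*, 22.3 ± 5.18 for *clocka* and 5.07 ± 1.55 for *arntl1a* (SD, n = 3). Mean FPKM in WT retinas was 263 ± 84.9 for *nr1d1*, 138 ± 17.6 for *nr1d2b*, 93.5 ± 6.85 for *clockb*, 79.3 ± 9.09 for *nr1d2a*, 34.3 ± 9.21 for *clocka* and 8.60 ± 0.58 for *arntl1a* (SD, n = 3). The order was thus the same in both genotypes. The samples of *nr1d1* and *nr1d2b* overlapped in *pde6c* but not in WT, whereas those of *clockb* and *nr1d2a* overlapped in WT but not in *pde6c*. All other neighbours in this order had samples apart in both genotypes.

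**Figure D1:**
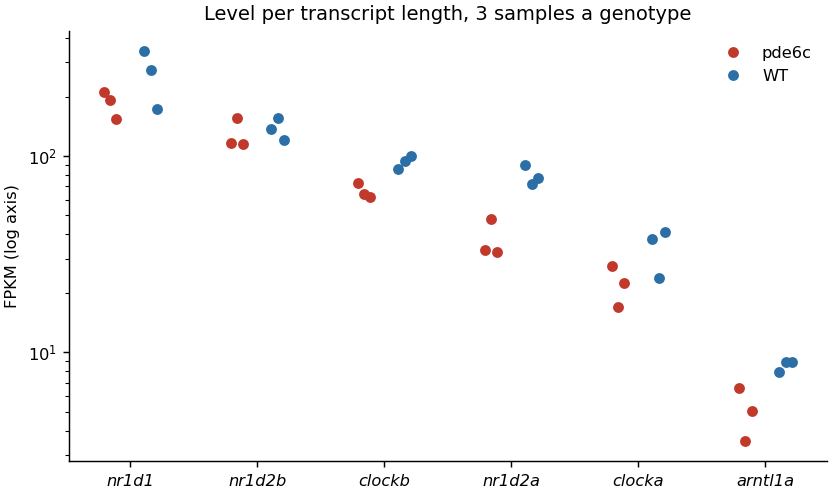
FPKM (log axis) of the 6 genes in each *pde6c* (left, red) and WT (right, blue) sample, ordered by level, with 1 point per sample. The repressors *nr1d1* and *nr1d2b* lie highest, *arntl1a* lies lowest, and the *pde6c* points of *nr1d2a* (32.5 to 48.0 FPKM) sit below its WT points (71.8 to 89.4 FPKM).

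Counts per kilobase of the whole gene span, introns included, gave another order below *nr1d2b*. On that scale *nr1d2a* came next with a mean of 2.90 CPM per kb in *pde6c* and 5.87 CPM per kb in WT, ahead of *clockb* (2.35 in *pde6c* and 3.28 in WT), *clocka* (1.59 in *pde6c* and 2.15 in WT) and *arntl1a* (1.45 in *pde6c* and 1.72 in WT). Without a length, *clocka* had more counts than *clockb* in every sample, although its FPKM were lower in every sample. The count ratio of *clocka* to *clockb* was 1.60, 2.54 and 2.67 in *pde6c* samples and 1.81, 1.81 and 2.78 in WT samples, while their FPKM ratio was 0.376, 0.267 and 0.365 in *pde6c* samples and 0.440, 0.252 and 0.412 in WT samples. The span of *clocka* covers 108667 bases and that of *clockb* 33450 bases, so that the order of levels given here is that per transcript length.

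Of the 6 genes, *nr1d2a* fell in *pde6c* retinas, to 49.4% of its WT level, and it was the only member past the threshold. The other 5 also had lower means in *pde6c*, at 68.0% to 87.3% of WT, but none of them passed the test. Across all 17242 genes tested by edgeR's quasi-likelihood test, 2.29% were called lower in *pde6c* at a Benjamini-Hochberg adjusted p under 0.1, and 1 of the 6 members was (3.69% of all genes were called in either direction). DESeq2 also called 1 of the 6 lower, again *nr1d2a*, against 3.17% of its genes. The unadjusted edgeR p was under 0.05 for 4 of the 6 members (*clocka*, *clockb*, *nr1d1* and *nr1d2a*), all lower in *pde6c*, against 6.26% of all genes. With a sample left out this count was between 1 (without WR1 or PR2) and 4. The log2 fold change (*pde6c* over WT) was below 0 for 6 of 6 members and for 49.7% of all genes tested, and its median was -0.46 over the members and 0.00 over all genes. In CPM, all *pde6c* samples lay below all WT samples for 2 of the 6 members (*clockb* and *nr1d2a*), against 8.75% of all genes tested. Because the members were chosen with earlier results of these data known, these comparisons with all genes are a description and not a test.

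**Figure D2:**
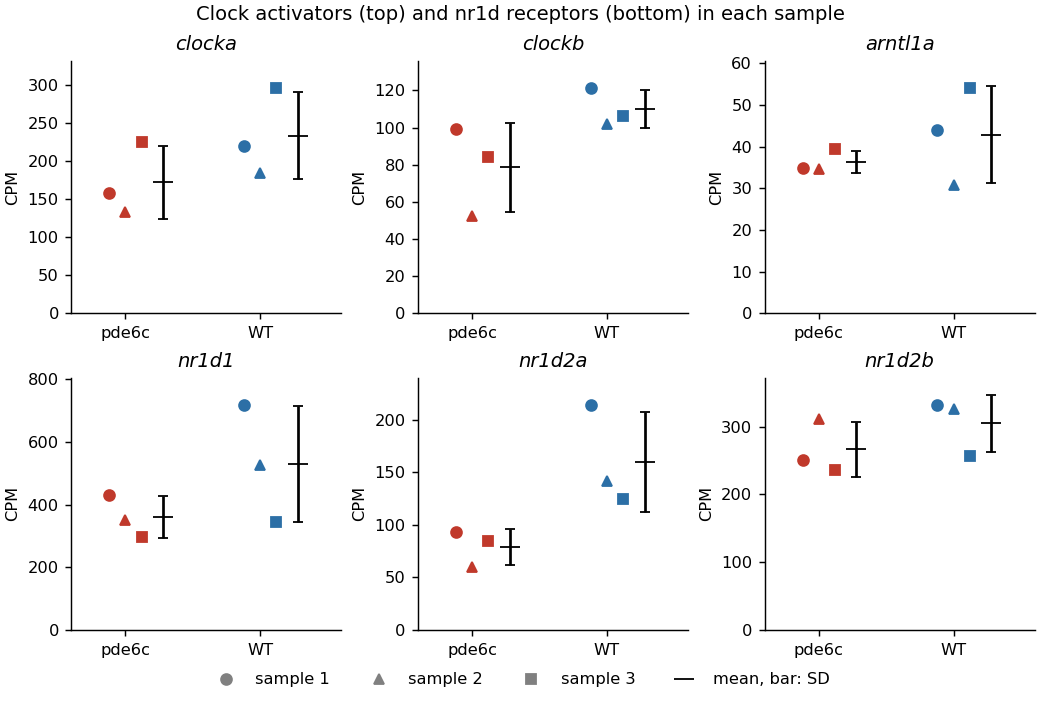
CPM of the 6 genes in each sample, with *pde6c* on the left (red) and WT on the right (blue). Symbols mark the sample numbers, and the horizontal line and bar beside them give the mean and SD of 3 samples. The genotypes are apart for *clockb* and *nr1d2a* and overlap for the other 4 genes.

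Among the activators, *clocka* and *clockb* encode the bHLH-PAS partner of BMAL1. The gene *clocka* lies on the plus strand of chromosome 20 at 22167664 to 22276330 (GRCz10, as are all positions here). It had 159, 133 and 225 CPM in *pde6c* samples, against 219.7, 185 and 296 CPM in WT samples. The highest *pde6c* sample, PR3, lay above the WT samples WR1 and WR2, so the genotypes overlapped. Its log2 fold change was -0.44 (SE 0.21, 95% interval -0.88 to -0.0023), with an unadjusted p of 0.0489 and an edgeR adjusted p of 0.413. The FPKM overlapped as well, with 27.4, 17.1 and 22.5 FPKM in *pde6c* samples and 37.9, 23.8 and 41.2 FPKM in WT samples. The log2 fold change in counts was -0.22 without WR3, -0.28 without PR2 and -0.67 without PR3.

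The other copy, *clockb* (chromosome 1, plus strand, 18740067 to 18773516), had 99.0, 52.4 and 84.3 CPM in *pde6c* samples, against 121, 102 and 106 CPM in WT samples. Every *pde6c* sample was below every WT sample, with PR2 the lowest by far. The fitted log2 fold change was -0.48 (SE 0.21, 95% interval -0.93 to -0.04, edgeR adjusted p = 0.360). In FPKM the genotypes were apart as well, with 72.8, 63.9 and 61.6 FPKM in *pde6c* samples and 86.2, 94.5 and 99.8 FPKM in WT samples. Without PR2 the log2 fold change in counts was -0.26 (adjusted p = 0.752).

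The third activator, *arntl1a* (chromosome 25, minus strand, 17797384 to 17822410), encodes BMAL1, which pairs with CLOCK. It had 34.9, 34.7 and 39.5 CPM in *pde6c* samples, against 43.9, 30.8 and 54.1 CPM in WT samples. The WT samples spread on both sides of the *pde6c* samples. Its log2 fold change of -0.24 (SE 0.23, 95% interval -0.73 to 0.25, edgeR adjusted p = 0.782) was small against this spread, and was -0.03 without WR3 and -0.43 without WR2. Its FPKM were 6.62, 3.52 and 5.06 in *pde6c* samples and 7.93, 8.93 and 8.95 in WT samples, without overlap, so that the tables differed on whether the genotypes were apart for this gene.

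Among the repressors, *nr1d1* (chromosome 3, plus strand, 23358104 to 23365675) encodes REV-ERB alpha. It had 431, 351 and 299 CPM in *pde6c* samples, against 719, 526 and 346 CPM in WT samples. WR3 lay within the range of the *pde6c* samples, while WR1 and WR2 lay above it. This gave a log2 fold change of -0.56 (SE 0.21, 95% interval -1.01 to -0.10), with an edgeR adjusted p of 0.263. Without WR3 it was -0.78 with an adjusted p of 0.0540, and without WR1 it was -0.27 with an adjusted p of 0.681, so that its size rested on which WT samples were kept. Its FPKM were 212, 193 and 154 in *pde6c* samples and 343, 273 and 174 in WT samples, with WR3 again among the *pde6c* samples.

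The copies *nr1d2a* and *nr1d2b* encode REV-ERB beta. The gene *nr1d2a* (chromosome 16, plus strand, 49879775 to 49907024) had 93.1, 59.9 and 84.3 CPM in *pde6c* samples, against 214, 141 and 125 CPM in WT samples. All *pde6c* samples were below all WT samples, and WR1 was the highest. The log2 fold change was -1.02 (SE 0.22, 95% interval -1.48 to -0.56, edgeR adjusted p = 0.0143), and it was lower than that of all but 5.07% of the genes tested. Without WR1 the log2 fold change was -0.74 and the adjusted p 0.101, so that the call was lost.

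The other copy, *nr1d2b* (chromosome 19, plus strand, 17941698 to 17948550), had 251, 312 and 237 CPM in *pde6c* samples, against 332, 326 and 257 CPM in WT samples. PR2 lay above WR3, so the genotypes overlapped. Its log2 fold change was -0.20 (SE 0.16, 95% interval -0.53 to 0.14, edgeR adjusted p = 0.723). Its FPKM of 117, 155 and 114 in *pde6c* samples and 137, 155 and 120.0 in WT samples overlapped too. With a sample left out the log2 fold change in counts ran from -0.33 (without PR2) to -0.11 (without PR3). None of the 6 gene spans overlapped another gene of the table.

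The FPKM of the same libraries were tested with limma after adding 1 and taking log2, which understates changes of low genes. They are a second readout and not independent samples. On this scale *nr1d2a* had a difference of -1.07 (95% interval -1.56 to -0.57, limma adjusted p = 0.0789), from 33.1, 48.0 and 32.5 FPKM in *pde6c* samples and 89.4, 71.8 and 76.8 FPKM in WT samples. It was again the only member called, where 0.792% of 15782 genes were called lower and 1.30% in either direction. The call was lost when any sample other than PR2 was left out, with a limma adjusted p between 0.178 and 0.240 and a difference between -1.13 and -0.97. The differences of the others were -0.59 for *clocka*, -0.50 for *clockb*, -0.69 for *arntl1a*, -0.45 for *nr1d1* and -0.10 for *nr1d2b*, with limma adjusted p between 0.359 and 0.916. In FPKM all *pde6c* samples lay below all WT samples for 3 of the 6 members (*clockb*, *arntl1a* and *nr1d2a*), against 8.47% of genes tested.

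**Figure D3:**
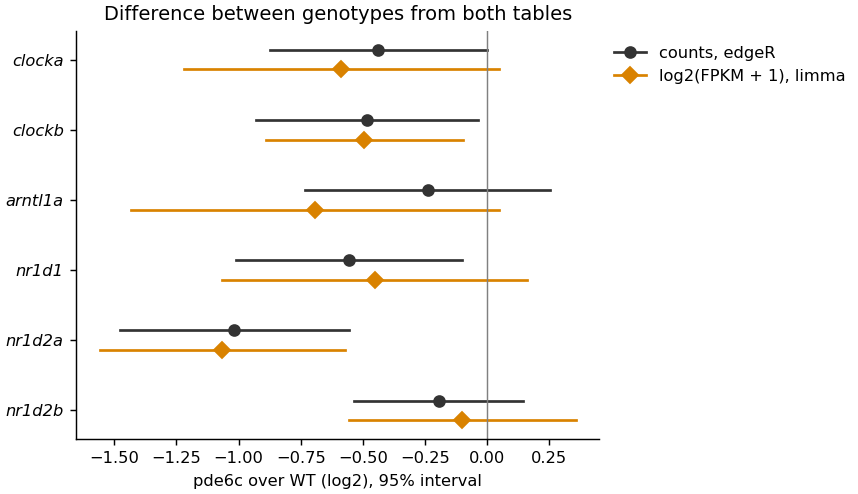
Difference between *pde6c* and WT retinas for each gene on the log2 scale, with 95% intervals, from the counts (circles, edgeR) and from log2(FPKM + 1) (diamonds, limma). All points lie left of 0, and *nr1d2a* lies farthest left in both tables (-1.02 in counts and -1.07 in FPKM).

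Ratios within a library, which do not depend on how libraries are scaled, were compared for the gene copies and among the repressors. Of the 4 ratios, that of the REV-ERB beta copies differed most between genotypes. It sets the repressor with the largest fall in counts against the one with the smallest, so it restates those differences and is not a separate result. The count of *nr1d2a* was 0.372, 0.192 and 0.356 of that of *nr1d2b* in *pde6c* samples, against 0.645, 0.433 and 0.486 in WT samples. The log2 ratio was -1.77 ± 0.53 in *pde6c* and -0.96 ± 0.30 in WT (SD, n = 3), a difference of -0.81 without overlap (-0.50 without PR2). A two-sided exact permutation test gave p = 0.1, the smallest that 3 samples against 3 allow, and 0.4 after adjustment over the 4 ratios. In FPKM the difference of this log2 ratio was -0.98, also without overlap (exact permutation p = 0.1, and 0.2 after adjustment over the 4 ratios).

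The other ratios overlapped between genotypes in counts. The difference in log2 ratio was 0.08 for *clocka* to *clockb* (exact permutation p = 1), where it took either sign with a sample left out (-0.05 to 0.32) and was -0.11 in FPKM. It was -0.49 for *nr1d2a* to *nr1d1* (exact permutation p = 0.2, -0.31 without PR2) and -0.31 for *nr1d1* to *nr1d2b* (p = 0.3, -0.13 without WR1). In FPKM that of *nr1d2a* to *nr1d1* was -0.63, with the genotypes apart (exact permutation p = 0.1, and 0.2 after adjustment). As a description of the balance of the loop, the summed FPKM of the 3 *nr1d* genes was 3.39, 4.70 and 3.38 times that of the 3 activators in *pde6c* samples, and 4.31, 3.93 and 2.47 times in WT samples. The genotypes overlapped.

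In counts, the samples of a genotype differed among themselves more for these genes than for most genes of like level, except for *clockb* in WT and *arntl1a* in *pde6c*. The SD of log2 CPM over 3 samples was ranked for this among the genes whose mean level was within 0.5 on the log2 scale. In *pde6c* samples the SD was 0.39 for *clocka* and 0.48 for *clockb*, larger than for 96.9% and 97.8% of genes of like level. In WT samples it was 0.53 for *nr1d1*, 0.41 for *nr1d2a* and 0.35 for *clocka*, larger than for 98.9%, 94.9% and 91.7% of such genes. The gene *nr1d2b* was in the middle, with 0.21 in both genotypes, larger than 70.2% in *pde6c* and 63.6% in WT. The spread of *clockb* in WT (0.13) and of *arntl1a* in *pde6c* (0.10) was small, larger than only 26.7% and 12.4% of genes of like level. On the log2(FPKM + 1) scale 11 of these 12 ranks were lower, and 5 of 12 were above the middle of genes of like level, against 10 of 12 in counts. There the SD of *clockb* in *pde6c* was 0.13, that of *arntl1a* was 0.38 in *pde6c* and 0.09 in WT, and that of *nr1d2a* in WT was 0.16, larger than for 28.8% of such genes. The highest ranks in FPKM were those of *nr1d1* in WT (0.50, larger than for 88.9%) and *clocka* in WT (0.41, larger than for 76.7%).

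In counts, the activators *clocka* and *arntl1a* deviated in the opposite direction to the repressors *nr1d1* and *nr1d2b* in the number 3 samples. In both genotypes the number 3 sample was the highest of 3 for *clocka* and *arntl1a* and the lowest of 3 for *nr1d1* and *nr1d2b*. The log2 CPM of the number 3 sample minus the mean of the other two was 0.63 in *pde6c* and 0.56 in WT for *clocka*, 0.18 and 0.56 for *arntl1a*, -0.38 and -0.83 for *nr1d1*, and -0.24 and -0.36 for *nr1d2b*. For *clockb* it was 0.23 in *pde6c* and -0.06 in WT, and for *nr1d2a* 0.18 in *pde6c* and -0.48 in WT, so that these genes did not share the pattern. The FPKM of *nr1d1* and *nr1d2b* were also lowest in PR3 and WR3. Those of *clocka* and *arntl1a* were highest in WR3 but not in PR3. PR1 had 27.4 FPKM of *clocka* against 22.5 in PR3, and 6.62 FPKM of *arntl1a* against 5.06 in PR3. For *arntl1a*, WR3 was barely above WR2 (8.95 against 8.93 FPKM). Of the 17242 genes tested, 2068 were highest and 2156 (12.5%) lowest in the number 3 sample of both genotypes. Of the 44 other clock genes tested, 3 (6.82%) were highest there in both genotypes and 10 (22.7%) lowest. This was noticed in the values and has no test. Same-numbered samples are different larvae, and across all genes their deviations were nearly uncorrelated. That correlation over all genes cannot decide whether a small set, such as the clock genes, deviated together. The call of *nr1d2a* held without both number 3 samples (log2 fold change -1.21, edgeR adjusted p = 0.0561), where 0.980% of genes were called lower.

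**Figure D4:**
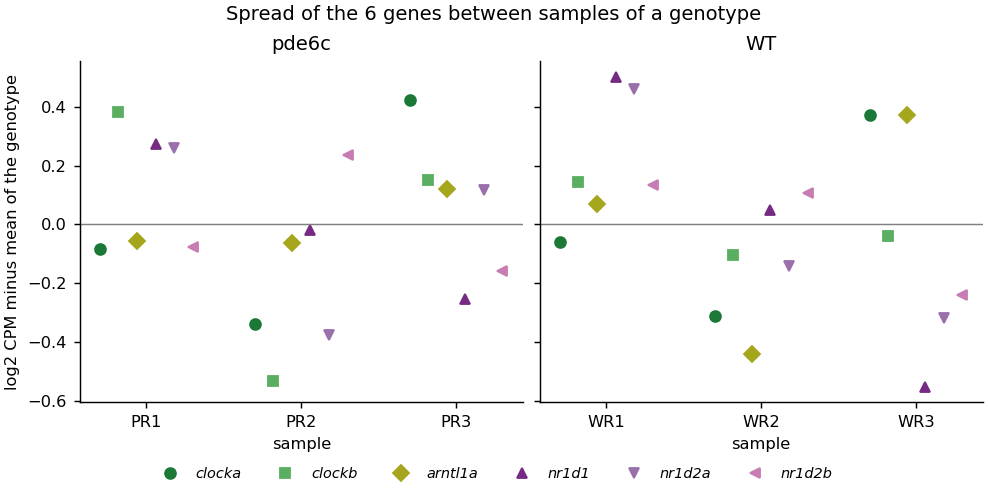
Deviation of each sample's log2 CPM from the mean of its genotype, for *pde6c* (left) and WT (right), with activators in green and yellow and *nr1d* genes in purple. In PR3 and WR3, *clocka* and *arntl1a* lie above 0 and *nr1d1* and *nr1d2b* below it.

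The other genes of the clock were examined in lists by role, also chosen with earlier results of these data known. Of their 55 symbols, 48 matched a gene of the table and 44 were tested. Of these 44, 5 fell, 4 rose and 35 did not pass the test, with a median log2 fold change of 0.00, the same as over all genes to this precision. Among all genes, 2.29% were called lower and 1.40% higher. Samples were apart with *pde6c* below for 8 of the 44 and with *pde6c* above for 8, against 8.75% and 8.15% of all genes. The 5 that fell were further activators and further members of the *nr1d* and ROR receptor families, and the 4 that rose were period and cryptochrome genes and *aanat2*.

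Of the 3 partner activators, 2 fell. The gene *arntl1b*, the other copy of *arntl1a*, had 65.0, 65.7 and 70.8 CPM in *pde6c* samples, against 105, 111 and 134 CPM in WT samples (log2 fold change -0.80, SE 0.17, edgeR adjusted p = 0.0142). The gene *npas2*, a paralog of *clock* that can take its place in mammals, had 65.4, 38.9 and 42.0 CPM in *pde6c* samples, against 85.9, 81.3 and 119 CPM in WT samples (log2 fold change -0.97, SE 0.23, adjusted p = 0.0274). Both genes had all *pde6c* samples below all WT samples in CPM but overlapped in FPKM, where limma called neither (adjusted p = 0.586 and 0.463). The call of *arntl1b* was lost without WR3 (log2 fold change -0.68, adjusted p = 0.118), and that of *npas2* without WR3, PR2 or PR3 in turn (-0.86 to -0.77, adjusted p = 0.139 to 0.191). Without both number 3 samples neither gene was called (edgeR adjusted p = 0.224 for *arntl1b* and 0.475 for *npas2*). The gene *arntl2* overlapped between genotypes (log2 fold change -0.10, adjusted p = 0.939).

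Of the 6 *nr1d* paralogs and ROR receptors tested, 3 fell. The gene *nr1d4a* had 132, 78.7 and 91.5 CPM in *pde6c* samples, against 409, 337 and 275 CPM in WT samples (log2 fold change -1.76, SE 0.20, edgeR adjusted p = 6.17e-05). Its copy *nr1d4b* had 209, 83.7 and 212 CPM in *pde6c* samples, against 487, 355 and 272 CPM in WT samples (log2 fold change -1.14, SE 0.28, adjusted p = 0.0362). Thus of the 5 *nr1d* genes measured, *nr1d4a*, *nr1d4b* and *nr1d2a* passed the test, and *nr1d1* and *nr1d2b* did not. The call of *nr1d4b* was lost without WR1 (log2 fold change -0.89, adjusted p = 0.174). The ROR receptor gene *rorcb* had 81.0, 30.9 and 39.1 CPM in *pde6c* samples, against 156, 91.7 and 239.7 CPM in WT samples (log2 fold change -1.69, SE 0.34, adjusted p = 0.00884). Its call held without each sample in turn, but without both number 3 samples it was -1.13 with an adjusted p of 0.309. In FPKM limma called *nr1d4a* (adjusted p = 0.0873) but neither *nr1d4b* (0.320) nor *rorcb* (0.281). The genes *roraa*, *rorb* and *rorca* had log2 fold changes of -0.27, 0.07 and -0.50 and were not called. The gene *rorab* had 0 counts in all 6 libraries, but it was present in FPKM. There it had 62.3, 91.7 and 95.8 FPKM in *pde6c* samples, against 77.9, 75.3 and 99.2 FPKM in WT samples (difference -0.03, limma adjusted p = 0.984).

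Of the 9 period and cryptochrome repressors, 3 rose and none fell. The gene *per2*, which light induces in zebrafish, had 304, 86.7 and 165 CPM in *pde6c* samples, against 38.0, 30.4 and 29.1 CPM in WT samples (log2 fold change 2.51, SE 0.32, edgeR adjusted p = 0.000196). The gene *cry1aa*, another light-induced repressor in zebrafish, had 95.2, 88.6 and 72.2 CPM in *pde6c* samples, against 42.4, 29.5 and 30.2 CPM in WT samples (log2 fold change 1.32, SE 0.21, adjusted p = 0.00127). Both also rose in FPKM (limma adjusted p = 0.0375 for *per2* and 0.0315 for *cry1aa*). The gene *per3* was close to the threshold, with a log2 fold change of 0.58 and an adjusted p of 0.0932, and its call was lost without each sample in turn other than PR1 (0.36 to 0.63) and in FPKM (limma adjusted p = 0.423). Without both number 3 samples *per3* was not called (edgeR adjusted p = 0.452), whereas *per2* (0.0101) and *cry1aa* (0.0176) were.

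In the remaining lists 1 gene passed, *aanat2*, which encodes an enzyme of melatonin synthesis. It had 26.2, 18.4 and 22.2 CPM in *pde6c* samples, against 13.1, 5.97 and 4.05 CPM in WT samples (log2 fold change 1.52, SE 0.40, edgeR adjusted p = 0.0548). Its call was lost without WR2, WR3, PR1 or PR3 in turn (1.23 to 1.54, adjusted p = 0.135 to 0.200) and in FPKM (limma adjusted p = 0.131). Without both number 3 samples it was lost as well (log2 fold change 1.23, edgeR adjusted p = 0.360). None of the 4 light and DNA repair cryptochromes and photolyases passed (*cry-dash*, log2 fold change 1.68, adjusted p = 0.122). In CPM, all *pde6c* samples lay above all WT samples for 3 of these 4 and below them for 1, against 8.15% and 8.75% of all genes. None of the 4 bHLH and *ciart* repressors passed (*bhlhe41*, -0.26, adjusted p = 0.618). The same held for the 8 PAR bZIP and *nfil3* genes (*hlfb*, -0.66, adjusted p = 0.160) and the 5 kinases and ubiquitin ligases (*fbxl3a*, 0.21, adjusted p = 0.787).

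**Figure D5:**
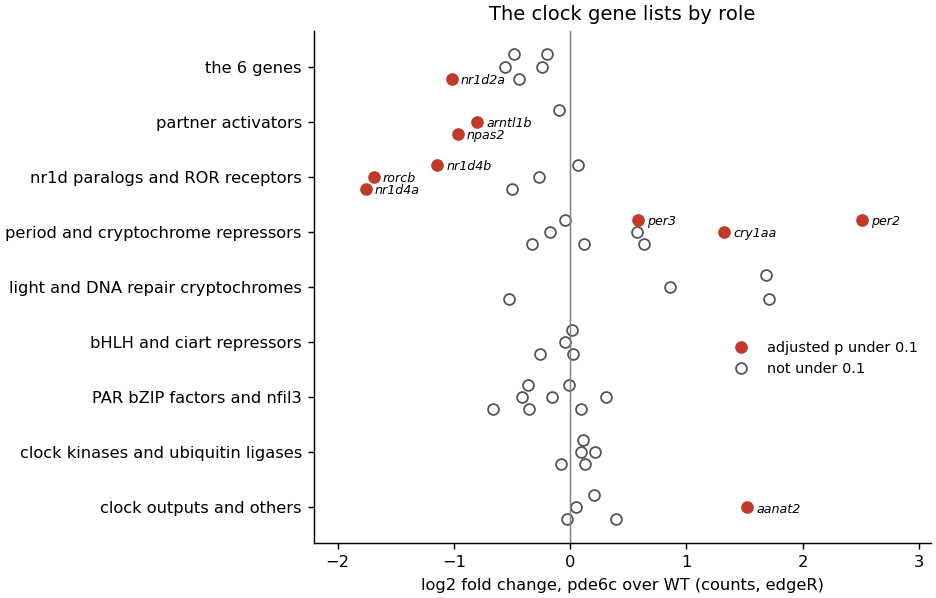
Log2 fold change (*pde6c* over WT, counts) of the 6 genes and of the other clock genes by role, with 1 point per gene. Filled points have an edgeR adjusted p under 0.1 and are named: the filled points of the activator, *nr1d* and ROR lists lie left of 0, and those of the period, cryptochrome and output lists lie right of it.

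For the members whose log2 CPM ranged over at least 1 across the 6 libraries, the named genes with the most similar pattern were found by the root mean square difference of mean-centred log2 CPM over the 6 libraries. These were *IPMK* (0.0489), an inositol polyphosphate kinase gene, and *zgc:92594* (0.0814) for *clocka*, and *GPR12* (0.0579), an orphan receptor gene, and *c2cd3* (0.0793), a centriole gene, for *clockb*. They were *CALB1* (0.0945), a calcium binding protein gene, and *chaf1a* (0.106), a chromatin assembly gene, for *nr1d1*, and *cdhr5b* (0.0581) and *GPSM2* (0.147) for *nr1d2a*. Of these, *zgc:92594* (3.04 to 7.08 CPM) and *cdhr5b* (1.22 to 4.33 CPM) were low. They are the closest of all named genes over only 6 libraries, and their likeness was not tested. No gene of the clock lists was among these similar genes, but the lists held only 44 of the 17242 genes tested, so that their absence says little. The log2 CPM of *arntl1a* and *nr1d2b* ranged over 0.81 and 0.49, so no similar genes are given for them.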

How the data were processed

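Per the methods and file headers, reads passed through Trimmomatic and STAR 2.5.3a against GRCz10 (Ensembl release 89). The authors deposited fragment counts, obtained with featureCounts 1.5.2 over whole gene spans without strand and without multi-mapping or ambiguous fragments. Their other deposited table holds FPKM values of genes, computed with Cufflinks 2.2.1. Columns were assigned to samples by name, and each count column correlated best with the FPKM column of the same name.

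Counts were filtered with filterByExpr (minimum count 10) and tested for genotype alone with TMM and the quasi-likelihood test of edgeR 4.0.16 in R 4.3.3, with Benjamini-Hochberg adjustment over 17242 genes and calls at an adjusted p under 0.1. Standard errors are the log2 fold change over the root of the F statistic. Genes that reached an FPKM of 1 in 3 libraries or more were tested with limma 3.58.1 on log2(FPKM + 1). Alternatives included DESeq2 1.42.0, other normalizations and filters, a replicate block and left-out samples. The tests were tried on simulated data.

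Names came from NCBI tables, by exact symbol or by family symbol and chromosome (22595 of 25190 identifiers have a name). Named were the 6 members, *pde6c*, the clock genes past the threshold or of smallest p in their list, and the 2 most similar genes of members ranging over at least 1. Marker genes and the uncalled *arntl2*, *roraa*, *rorab*, *rorb* and *rorca* are given besides, these 5 named after their values were seen. The members and lists were chosen with earlier results of these data known. Sequences were not used here.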

Additional observations from a re-analysis of the deposited data

How the results depend on the processing

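All 6 members had a log2 fold change below 0 in all 17 settings compared with the count test (16 fits of the counts and 1 of FPKM), and *nr1d2a* was called in 16 of the 17 (adjusted p 0.000607 to 0.101). All 6 were also below 0 in 10 settings of the FPKM test, where *nr1d2a* was called in 3 (adjusted p 0.0730 to 0.240). Of the clock lists, *nr1d4a*, *per2* and *cry1aa* were called in all 17. No call changed sign, but the uncalled difference in the *clocka* to *clockb* log2 ratio did (0.08, against -0.11 in FPKM and -0.05 to 0.32 with a sample left out). Genes called numbered 636, against 1084 with DESeq2, 205 with limma on FPKM, 275 without both number 3 samples (an alternative chosen after seeing the data) and 414 to 537 with a sample left out. With a sample left out, 0 to 2 members were called lower, 3 to 6 clock list genes were called lower (5 with all samples) and 2 to 5 higher (4 with all samples). Clock list genes called lower and higher were 3 and 2 without the number 2 samples, 2 and 2 without the number 3 samples, and 1 and 2 with limma on FPKM, and 2 were higher at an adjusted p under 0.05. The log2 fold change of *nr1d1* was -0.78 to -0.27 with a sample left out and that of *nr1d2a* -1.16 to -0.74. With limma on FPKM, 64 genes were called without a filter and 99, 95, 96, 99, 109 and 113 (95 to 113) without WR1, WR2, WR3, PR1, PR2 and PR3 in turn, in place of 205. Members called lower there numbered 0 without a filter and 0 to 1 with a sample left out, in place of 1. The cause of these changes was not tested.

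Across all genes, same-numbered samples did not deviate together (correlations of 0.0843, 0.0405 and 0.0336 for numbers 1, 2 and 3). For this reason the numbers were not taken to pair the samples. A correlation over all genes cannot decide this for a few genes. The log2 CPM of *clocka* deviated by -0.09, -0.34 and 0.42 in PR1, PR2 and PR3 and by -0.06, -0.31 and 0.37 in WR1, WR2 and WR3. Those of *nr1d1* were 0.27, -0.02 and -0.25, and 0.50, 0.05 and -0.55, whereas *clockb* and *nr1d2a* differed in sign between PR3 and WR3. With the replicate number as a block, 984 genes were called, 627 of them among the 636, and 3 members were called lower, with *clocka* at -0.45 (adjusted p = 0.0379) and *nr1d1* at -0.51 (adjusted p = 0.0164) added. In FPKM, 0 members were called with this block.

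Search of promoter motifs was planned and not run, because no promoter sequences were available. Groups of 3 samples allow no exact permutation p under 0.1.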
